A study of Mus musculus with 6 samples.

Results

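Steroid hormones reach their target genes through nuclear receptors, which bind the hormone, release their chaperones and act on chromatin, and through proteins of membranes. The 8 genes described here encode both estrogen receptors (Esr1 and Esr2), the membrane estrogen receptor Gper1, the progesterone receptor Pgr, the progesterone membrane components Pgrmc1 and Pgrmc2, the glucocorticoid receptor Nr3c1 and the mineralocorticoid receptor Nr3c2. They were chosen by name, and 8 of 8 had a row among the 16454 genes of the table. In the ovary, ESR2 is known chiefly from granulosa cells and ESR1 from theca, stroma and surface epithelium. Pgr is known for its induction in granulosa cells of preovulatory follicles by the luteinizing hormone surge, and for its part in ovulation.

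Polyadenylated RNA of whole ovaries of CD1 mice was sequenced at postnatal day 21, in generation 3 of 2 lineages. The F0 dams of the DEHP lineage were dosed daily with the plasticizer di(2-ethylhexyl) phthalate (20 µg/kg), and those of the control lineage with its vehicle, a corn oil stripped of tocopherol. The labels give no dose to the mice whose ovaries were sequenced. Each lineage had 3 ovaries, each sequenced alone. Nothing in the labels ties an ovary to a litter or a founding dam, so that p-values measure only the spread between these ovaries.

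The values are log2 CPM, that is, read counts scaled to a common library size, on a log2 scale, and the authors had removed a surrogate variable, an estimated nuisance direction across samples, before deposit. The deviations of the ovaries from their lineage means filled 3 of 4 possible directions. The missing direction weighed most on DEHP replicates 1 and 3 (-0.60 and 0.75). Across genes, this pair of ovaries correlated at 0.998 and the other pairs at 0.978 to 0.989, and the removal pulls the pair together. The DEHP lineage had the smaller SD in 7 of the 8 genes and in 69.6% of all genes. Spreads within that lineage are therefore smaller than those between the ovaries as sequenced. The depth of the libraries is unknown. Markers of the tissue were present: the oocyte gene Zp2 had means of 8.30 and 8.05 log2 CPM and the granulosa gene Inha 12.01 and 12.25 in the control and DEHP lineages.

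The progesterone membrane components are paralogs, and both had lower means in the DEHP lineage. Their promoter windows are shown because both begin at a start site rich in CpG dinucleotides, the sites of DNA methylation in mammals. The 250 bases before the RefSeq start of each gene (GRCm38.p6) are given 5′ to 3′ along the gene's strand, with each CpG in capitals. The window of Pgrmc1 is chrX:36597943-36598192 on the plus strand and that of Pgrmc2 is chr3:41083047-41083296 on the minus strand.
Pgrmc1: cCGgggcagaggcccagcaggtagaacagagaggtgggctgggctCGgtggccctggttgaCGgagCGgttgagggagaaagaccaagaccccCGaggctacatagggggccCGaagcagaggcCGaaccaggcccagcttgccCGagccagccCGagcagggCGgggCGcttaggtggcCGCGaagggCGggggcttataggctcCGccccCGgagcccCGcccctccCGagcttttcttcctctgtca
Pgrmc2: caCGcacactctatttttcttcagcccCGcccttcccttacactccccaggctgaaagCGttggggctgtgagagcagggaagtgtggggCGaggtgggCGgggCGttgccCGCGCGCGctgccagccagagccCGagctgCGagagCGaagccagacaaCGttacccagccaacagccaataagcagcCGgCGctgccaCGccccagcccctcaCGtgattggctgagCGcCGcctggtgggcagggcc
The Pgrmc1 window held 18 CpGs and the Pgrmc2 window 20, where the median of all 32851 RefSeq windows of this length was 6. Windows of 7 of the 8 genes were used, and that of Nr3c1 is not reported here. The Pgr window held 4 CpGs, the Esr2 window 12, the Nr3c2 window 17, the Gper1 window 2 and the 2 windows of Esr1 4 and 7. RefSeq's spans of Pgr, Nr3c2, Gper1 and Esr1 begin before the start used for the Pgr, Nr3c2 and Gper1 windows and for 1 Esr1 window, so these lie wholly or in part within the gene. Methylation was not measured in these libraries, so the CpG counts describe the sequence alone.

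The same 250-base windows of the members, without that of Nr3c1, were searched on both strands for hormone response elements. The estrogen response element, GGTCA and TGACC with any 3 bases between them, occurred in none of the members' windows and in 0.0639% of all windows. The element bound by PGR, NR3C1 and NR3C2, GNACA and TGTNC with any 3 bases between them, was likewise found in 0 of the members' windows, against 0.387% of all. The single estrogen half-site GGTCA, which is also part of the first element, occurred 2 times each in the Esr2 and Nr3c2 windows and in 35.2% of all windows. The half-site AGAACA occurred 1 time, in the Pgrmc1 window, and in 16.1% of all windows. These matches are letters in a short window and not sites of binding.

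Levels of the 8 genes spanned a wide range when set per length, as the mean CPM over the 6 ovaries per kilobase of annotated exon. Esr2 stood highest, at 110.0 CPM per kb (96.0 to 129.0 over the ovaries), followed by Pgrmc1 at 91.8 (77.1 to 105.0). The ranges of these genes over the ovaries overlapped, but within each ovary Esr2 stood above Pgrmc1 per kb of annotated exon. Pgrmc2 was at 35.5, Nr3c1 at 11.9 and Esr1 at 4.59 CPM per kb, and none of their ranges over the ovaries met. Nr3c2 (1.11), Gper1 (0.984) and Pgr (0.657) formed the low end, with ranges that overlapped one another. The order of the 8 genes was the same with the longest annotated transcript as the length, although Esr1 then stood at 9.89 CPM per kb.

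**Figure D1:**
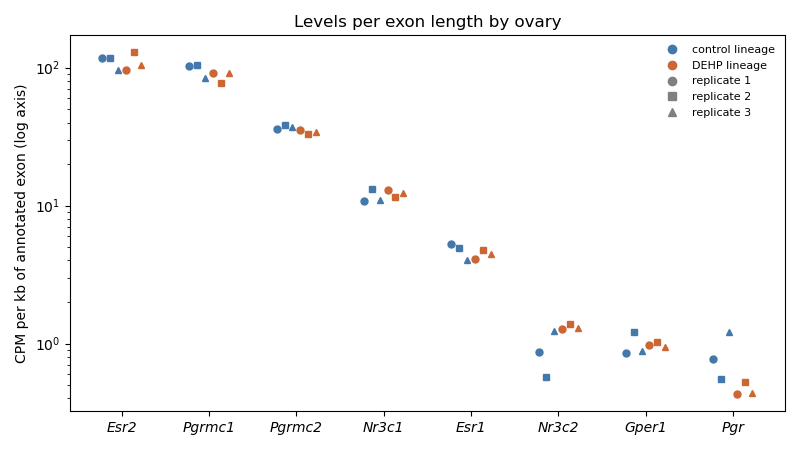
Level of each gene in each ovary, as CPM per kilobase of annotated exon on a log axis, with colour for the lineage and symbol for the replicate. Esr2 (110.0 CPM per kb in mean) and Pgrmc1 (91.8) lie at the top, and Nr3c2, Gper1 and Pgr at the bottom.

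Of the 8 genes, 5 had lower and 3 had higher means in the DEHP lineage (53.1% of all genes were lower), with a median log2 fold change of -0.05, against -0.01 over all genes. None passed an adjusted p of 0.05 over all genes by limma (0 of 8, against 0.0425% of all genes), and 1, Pgr, had an unadjusted p under 0.05, which 8.78% of all genes had. The lineages did not overlap in 3 of the 8, against 22.9% of all genes: Pgr and Pgrmc2 were lower in each DEHP-lineage ovary than in any control ovary, and Nr3c2 was higher. That is 37.5% of only 8 genes, and nothing is read from the excess. In the authors' deposited table, too, 0 of the 8 genes had an adjusted p under 0.05 (0.0182% of all genes had), and the unadjusted p was under 0.05 for Pgr alone (6.18% of all genes).

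**Figure D2:**
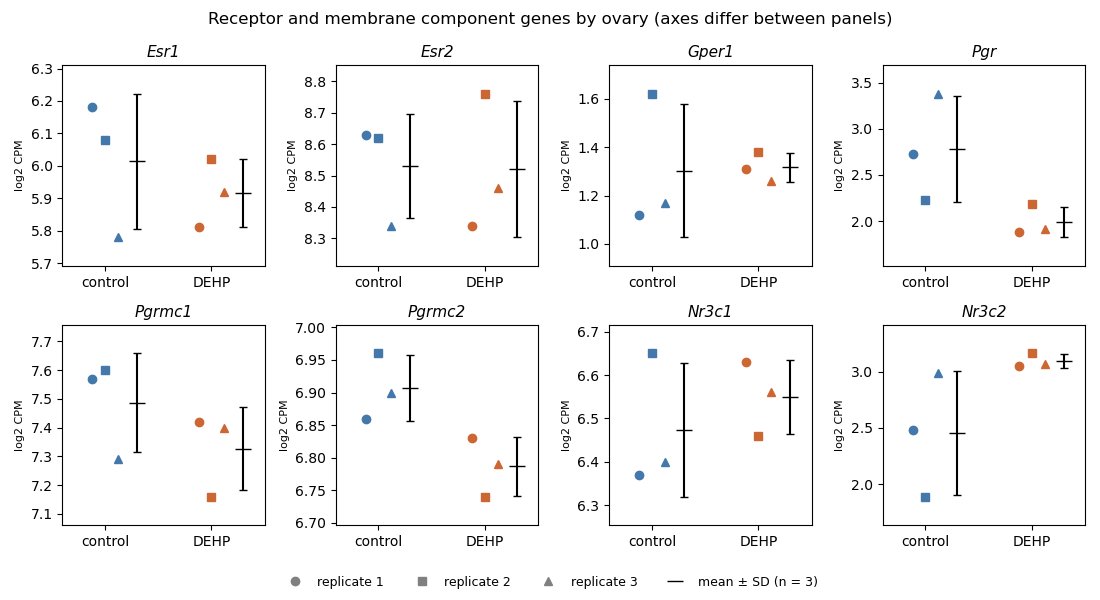
Log2 CPM of the 8 genes in each ovary, with the mean and SD of each lineage (n = 3) beside the points; the vertical axes differ between panels. The lineages are separate in Pgr, Pgrmc2 and Nr3c2 and overlap in the other 5 genes.

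Pgr (Entrez 18667, chromosome 9, 8898900 to 8968611), the nuclear receptor for progesterone, was the gene with the lowest fold change of the 8. Control ovaries had 6.64, 4.70 and 10.4 CPM (replicates 1, 2 and 3), and DEHP-lineage ovaries had 3.67, 4.52 and 3.75 CPM. The control ovaries were spread over 1.15 log2 units, and the lowest of them lay only 0.055 log2 units above the highest DEHP-lineage ovary. The means were 2.78 ± 0.575 and 1.99 ± 0.165 log2 CPM (SD, n = 3 each), a level 1.73-fold lower in the DEHP lineage. The log2 fold change of -0.79 (SE 0.304) had a 95% interval of -1.51 to -0.08, with a limma p of 0.0334 and an adjusted p of 0.54. An exact two-sided permutation test gave p = 0.1, the smallest that 3 against 3 ovaries can give. It takes the ovaries as exchangeable, which the removed direction does not ensure. Control replicate 3 carried much of the difference, and without it the log2 fold change was -0.49. A change as low as that of Pgr or lower was seen in 1.19% of all genes. The authors' deposited table gave Pgr a log2 fold change of -0.88, with p 0.0332 and adjusted p 0.762.

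Since these are whole ovaries, fewer cells of a type and less RNA per cell cannot be told apart. None of the markers in 12 cell type lists passed the adjusted p by limma (0 in each list). The summed CPM of 10 theca and interstitial markers was 3110 to 3810 in control ovaries and 2930 to 3040 in the DEHP lineage, with 9 of the 10 lower in mean and Insl3 below 0 log2 CPM. That of 10 smooth muscle and pericyte markers was 2140 to 2390 against 1730 to 1970, with 9 of the 10 lower. That of 10 granulosa markers was 6980 to 8210 against 8280 to 9140, with 5 of the 10 lower and a median log2 fold change of 0.08. The unadjusted p by limma was under 0.05 for 4 smooth muscle and pericyte, 2 granulosa and 1 theca and interstitial markers. Of all genes, 8.78% had such a p. In these 3 lists the sums did not overlap between the lineages, and in the other lists they did. Each sum is weighted to its most abundant genes. Inha made up most of the granulosa sum, with means of 12.01 and 12.25 log2 CPM in the control and DEHP lineages. Hsd3b1 made up most of the theca and interstitial sum, with means of 11.19 and 11.01.

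Oocyte markers summed to 1140 to 1480 CPM in control ovaries and 1060 to 1200 in the DEHP lineage, with 9 of 10 lower in mean. Their median log2 fold change was -0.23, and 2 had an unadjusted p by limma under 0.05, against 8.78% of all genes. Erythroid markers summed to 65.6 to 127 and 115 to 290 CPM in the control and DEHP lineages, with 5 of 5 higher and a median of 0.84. One of them, Slc4a1, averaged -0.25 log2 CPM over the 6 ovaries. The unadjusted p by limma was under 0.05 for 2 of the 5, against 8.78% of all genes. In the oviduct, whose epithelium is known to express Pgr, 9 markers summed to 39.7 to 51.6 and 49.0 to 64.9 CPM, with 3 of the 9 lower and Wfdc2 below 0 log2 CPM. The sums were 136 to 216 and 139 to 165 CPM for luteal markers (4 of 6 lower, Akr1c18 below 0 log2 CPM). They were 2310 to 2670 and 2490 to 2610 CPM for stromal markers (3 of 8 lower). They were 391 to 430 and 341 to 396 CPM for endothelial markers (5 of 7 lower), 94.0 to 114 and 103 to 116 for surface epithelial markers (4 of 9 lower) and 37.0 to 102 and 63.0 to 69.1 for macrophage markers (4 of 7 lower). The most abundant marker of each list had a log2 fold change between -0.33 (luteal, Prlr) and 1.51 (erythroid, Hba-a1). Among them were -0.27 for the smooth muscle actin Acta2, -0.25 for Zp2, -0.18 for the steroidogenic enzyme gene Hsd3b1, -0.13 for Cdh5, -0.10 for Mrc1 and -0.09 for Col1a1. The others were 0.20 for Krt8, 0.23 for Tppp3, 0.24 for Inha and 0.49 for the adipocyte gene Cfd. The part of these cells in the Pgr values was not tested.

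The membrane components of the progesterone response showed much smaller differences. Pgrmc1 (Entrez 53328, chromosome X, 36598193 to 36606079) encodes a heme-binding membrane protein that carries progesterone effects in granulosa and luteal cells. It was at 190.0, 194.0 and 156.0 CPM in the control ovaries and at 171.0, 143.0 and 169.0 CPM in the DEHP lineage. The lineages overlapped, because control replicate 3 lay below DEHP replicates 1 and 3. The log2 fold change of Pgrmc1 was -0.16, with a 95% interval of -0.43 to 0.11.

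Pgrmc2 (Entrez 70804, chromosome 3, 41066326 to 41083046), its paralog and likewise a heme-binding protein, had 116.0, 124.0 and 120.0 CPM in the control ovaries and 114.0, 107.0 and 111.0 CPM in the DEHP lineage. All 3 DEHP-lineage values lay below the controls, by a gap of 0.031 log2 units. Pgrmc2 had the smallest control SD of the 8 genes, 0.049 log2 CPM. Its log2 fold change of -0.12 had a 95% interval of -0.28 to 0.04 and an adjusted p of 0.666 by limma, with an exact permutation p of 0.1. Within each ovary, Pgrmc1 stood 2.28 to 2.85 times as high as Pgrmc2 per kb of exon in the control lineage and 2.33 to 2.66 times in the DEHP lineage, so that their balance overlapped between lineages.

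The seven-span progesterone receptors, heme-binding relatives of the membrane components and Serbp1, an RNA-binding partner of PGRMC1, gave 5 lower and 3 higher means among 8 genes measured, with 0 past the adjusted p by limma and 1 with an unadjusted p under 0.05 (median log2 fold change -0.08). Paqr9, of the family of membrane progesterone receptors, was at 1.54, 1.81 and 1.71 log2 CPM in control ovaries and at 2.56, 2.20 and 2.43 in the DEHP lineage, higher in each. Paqr9 had a log2 fold change of 0.71 (95% interval 0.23 to 1.18, adjusted p 0.475 by limma). Paqr6 had a log2 fold change of 0.51, Cyb5d2 -0.34 and Paqr8 -0.14, and the lineages overlapped in all 3.

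Among 12 genes known to respond to the progesterone receptor, 4 had lower and 8 had higher means (median 0.12), with 0 past the adjusted p by limma. The unadjusted p was under 0.05 for 3 of the 12, against 8.78% of all genes. Adamts1, a protease of the ovulating follicle, was lower in each DEHP-lineage ovary, with means of 5.20 ± 0.06 and 4.97 ± 0.03 log2 CPM (SD, n = 3 each). The difference, as log2 fold change, was -0.24 (-0.43 to -0.04, adjusted p 0.511 by limma). Others of the list lay on the opposite side: Ereg, an EGF-like factor of ovulation, had 0.82, Rgcc, a cell cycle regulator, 0.50, and Zbtb16, which is also a target of the corticosteroid receptors, 1.69. The ovulatory genes Areg, Edn2, Il6 and Adcyap1 of the list were not analysed here.

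The estrogen receptors differed far more from each other than between lineages. Esr2 (Entrez 13983, chromosome 12, 76120419 to 76177259) had 396.0, 395.0 and 325.0 CPM in the control ovaries and 323.0, 434.0 and 353.0 CPM in the DEHP lineage. The DEHP-lineage values enclosed the control values on both sides, and the log2 fold change was -0.01 (95% interval -0.33 to 0.31). Esr2 was the member with the largest SD in the DEHP lineage, 0.219 log2 CPM.

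Esr1 (Entrez 13982, chromosome 10, 4611989 to 5005633) was at 72.4, 67.5 and 54.9 CPM in the control ovaries and at 56.0, 64.9 and 60.4 CPM in the DEHP lineage. Control replicate 3 was the lowest of the 6 ovaries, below each ovary of the DEHP lineage. Its log2 fold change of -0.10 had a 95% interval of -0.38 to 0.19. Per kb of exon, Esr2 stood 22.2 to 24.0 times as high as Esr1 in the control ovaries and 23.4 to 27.1 times in the DEHP lineage. With the longest transcripts as lengths these ratios were 10.3 to 11.1 and 10.9 to 12.6. Esr1 and Esr2 had a Pearson correlation of 0.833 over the 6 ovaries, which share a common processing and a removed direction.

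Gper1 (Entrez 76854, chromosome 5, 139423150 to 139427800), a G protein-coupled receptor that responds to estradiol, was low, at 2.17, 3.08 and 2.25 CPM in control ovaries and 2.47, 2.61 and 2.39 CPM in the DEHP lineage. Control replicate 2 was highest and the DEHP-lineage ovaries lay between the controls. The log2 fold change of 0.01 had the wide 95% interval of -0.56 to 0.58.

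Of 13 genes on the list of estrogen receptor targets, 4 had lower and 9 had higher means (median 0.05), with 0 past the adjusted p by limma. For 3, Pgr among them, the unadjusted p was under 0.05, against 8.78% of all genes. Igfbp4, which binds insulin-like growth factors, was at 7.87, 7.75 and 7.82 log2 CPM in control ovaries and 8.15, 8.12 and 8.17 in the DEHP lineage. Each DEHP-lineage value lay above the controls, and the log2 fold change was 0.34 (0.17 to 0.50, adjusted p 0.339 by limma). Igf1, the growth factor itself, was lower in each DEHP-lineage ovary, with means of 9.15 ± 0.08 and 8.95 ± 0.07 log2 CPM (log2 fold change -0.20). Myb, a transcription factor gene near the floor of the table, had a log2 fold change of 0.80.

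**Figure D3:**
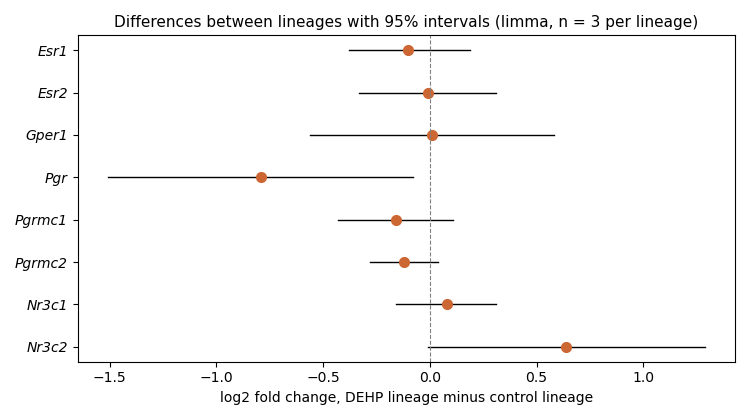
Log2 fold change of each of the 8 genes, DEHP lineage minus control lineage, as points with 95% intervals from limma (n = 3 per lineage). The interval of Pgr (-1.51 to -0.08) lies below 0 before adjustment, and the other 7 include 0.

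The orphan estrogen-related receptors and the ovarian nuclear receptors gave 5 lower and 2 higher means among 7 genes, with 0 called by limma and 0 with an unadjusted p under 0.05. Esrrb, an orphan receptor, was lower in each DEHP-lineage ovary (means 3.02 ± 0.34 and 2.54 ± 0.11 log2 CPM, log2 fold change -0.47). Nr2f2, a receptor of stromal and theca cells, was higher in each, by 0.11, and Esrra had 0.12. Nr5a1, an activator of steroidogenic genes, had a log2 fold change of -0.20.

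Of the corticosteroid receptors, Nr3c1 was the abundant one and Nr3c2 the one whose lineages separated. Nr3c1 (Entrez 14815), which binds glucocorticoids, had 83.0, 101.0 and 84.4 CPM in the control ovaries and 99.0, 88.2 and 94.4 CPM in the DEHP lineage. The values interleaved, and the log2 fold change was 0.08 (95% interval -0.16 to 0.31).

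Nr3c2 (Entrez 110784, chromosome 8, 76898083 to 77245012), the receptor for aldosterone that also binds corticosterone and progesterone, was at 5.59, 3.72 and 7.93 CPM in control ovaries and at 8.31, 8.96 and 8.43 CPM in the DEHP lineage. The DEHP-lineage ovaries lay close together and above all controls, with control replicate 3 only 0.068 log2 units below. The means were 2.46 ± 0.547 and 3.10 ± 0.058 log2 CPM (SD, n = 3 each), a ratio of 1.56. The log2 fold change of 0.64 (SE 0.278) had a 95% interval of -0.01 to 1.29, with a limma p of 0.0521 and an adjusted p of 0.569, and the exact permutation p was 0.1. Control replicate 2 was the lowest, and without it the log2 fold change was 0.36. A change as high as that of Nr3c2 or higher was seen in 4.01% of all genes. The authors' deposited table gave it a log2 fold change of 0.56, with p 0.0944 and adjusted p 0.838. In exon sequence, 3.82% of Nr3c2 is shared with Gm10649, a noncoding RNA on the opposite strand, and whether the counting used strand is not stated in the labels.

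Control replicates 1, 2 and 3 took the same order in Pgr and Nr3c2, lowest in replicate 2 and highest in replicate 3, while the DEHP lineage lay below the controls in the former and above them in the latter. Over the 6 ovaries the correlation of Pgr and Nr3c2 was -0.09. Within each ovary, Nr3c1 stood 8.96 to 22.8 times as high as Nr3c2 per kb of exon in the control lineage and 8.29 to 10.0 times in the DEHP lineage, and these ranges overlapped.

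Enzymes, efflux pumps and a binding globulin that handle the ligands of these receptors gave 3 lower and 3 higher means among 6 genes, with 0 past the adjusted p by limma and 1 with an unadjusted p under 0.05. Hsd11b2, which inactivates corticosterone and so keeps it from the mineralocorticoid receptor, had 6.73, 6.73 and 7.30 log2 CPM in the control ovaries and 6.42, 6.42 and 6.34 in the DEHP lineage. Each DEHP-lineage value lay below the controls. For Hsd11b2 the log2 fold change was -0.53 (-0.89 to -0.16, adjusted p 0.48 by limma). Hsd11b1, the enzyme of the reverse reaction, was scarce, at -0.26 ± 0.99 and 0.74 ± 0.22 log2 CPM (SD, n = 3 each), with control values on both sides of 0. H6pd, which supplies its cofactor, had a log2 fold change of 0.18. The efflux pump gene Abcb1b was lower in each DEHP-lineage ovary, with -0.41.

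Of 13 genes on the list of glucocorticoid and mineralocorticoid receptor targets, 4 had lower and 9 had higher means (median 0.17), with 0 past the adjusted p by limma. The unadjusted p was under 0.05 for 5 of the 13, against 8.78% of all genes. The lineages did not overlap for 6 of the 13, against 22.9% of all genes, and 5 of these were higher in the DEHP lineage, against 10.8%. The list was chosen with earlier results of these data known, so nothing is read from its counts beside these shares. It was described by its counts, and no test of it was run. The metallothionein genes Mt2 and Mt1, which bind metals, had log2 fold changes of 0.65 (0.19 to 1.11) and 0.29 (0.05 to 0.54), with adjusted p values of 0.491 and 0.514 by limma. Cdkn1a, an inhibitor of the cell cycle, had 0.83. Mt2, Mt1 and Cdkn1a were higher in DEHP replicates 1 and 3 than in replicate 2, and those replicates were pulled together by the removed direction.

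Zbtb16, a zinc finger transcription factor gene, ran from -0.09 to 1.55 log2 CPM in control ovaries and stood at 1.60, 3.88 and 1.75 in the DEHP lineage. Sgk1, a kinase gene known as a target of both corticosteroid receptors and named after its values were seen, had 5.57, 4.47 and 4.93 log2 CPM in control ovaries and 5.29, 6.69 and 5.78 in the DEHP lineage. In both genes DEHP replicate 2 was the highest of the 6 ovaries. The summed level of 7 adipocyte markers was also highest in that ovary, at 502 CPM, against 47.5 and 97.9 CPM in the other DEHP-lineage ovaries and 61.1 to 230.0 in the controls. All 7 had means above 0 log2 CPM, 2 of the 7 were lower in mean, and the part of adherent tissue in these values was not tested. Tsc22d3 and Per1, likewise named after their values were seen, had log2 fold changes of -0.12 and 0.04. Tsc22d3 was lower in each DEHP-lineage ovary than in any control ovary. Fkbp5 was not analysed here.

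**Figure D4:**
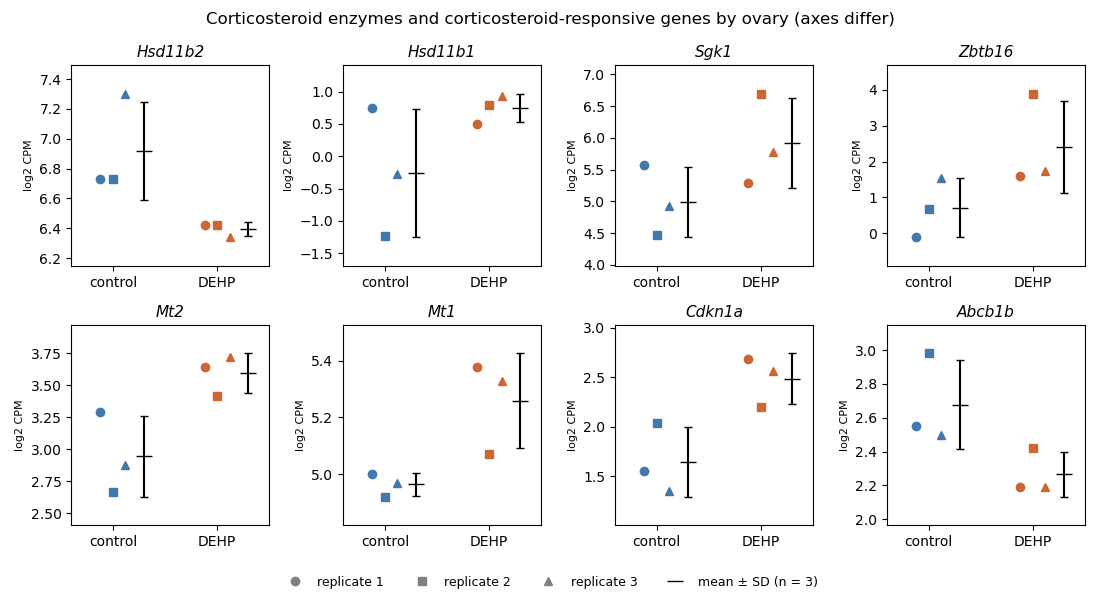
Log2 CPM of corticosteroid enzymes, an efflux pump and corticosteroid-responsive genes in each ovary, with the mean and SD of each lineage (n = 3); the vertical axes differ. Hsd11b2 and Abcb1b are lower in all DEHP-lineage ovaries, and Sgk1 and Zbtb16 are highest in DEHP replicate 2.

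The machinery that the nuclear receptors share showed small differences. Of 11 chaperones and cochaperones, 3 had lower and 8 had higher means (median 0.03), with 0 called by limma and 0 with an unadjusted p under 0.05. The HSP70 relative Hspa4 had a log2 fold change of -0.14, Stip1 0.14, Bag1 -0.09 and the kinase cochaperone Cdc37 -0.07. Of 14 coactivators and corepressors, 8 had lower and 6 had higher means (median -0.01), with 0 called and 1 with an unadjusted p under 0.05. That gene was Kmt2d, a histone methyltransferase that nuclear receptors recruit, at 8.31, 8.32 and 8.19 log2 CPM in the control ovaries and 8.64, 8.52 and 8.63 in the DEHP lineage. Its log2 fold change was 0.33 (0.14 to 0.51, adjusted p 0.385 by limma). The coactivators Ncoa2 and Med1 had log2 fold changes of 0.10 and -0.07.

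Among 10 enzymes of sex steroid synthesis and clearance, 8 had lower and 2 had higher means (median -0.13), with 0 called by limma and 1 with an unadjusted p under 0.05. Srd5a1, a steroid reductase that acts on progesterone and testosterone, was at 4.89, 4.96 and 5.71 log2 CPM in the control ovaries and 4.46, 4.61 and 4.37 in the DEHP lineage. As in Pgr and Hsd11b2, control replicate 3 was the highest ovary. Akr1c18, which inactivates progesterone, lay below 0 log2 CPM in mean in both lineages, at -0.46 and -1.16. Star, the cholesterol carrier, and Cyp17a1, the androgen-forming enzyme, had control SDs of 0.52 and 1.20 log2 CPM, about as large as their differences of -0.54 and -1.04.

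Over the 9 lists, which were chosen with earlier results of these data known, 90 genes other than the 8 members were measured. None passed the adjusted p by limma (0 of 90, smallest 0.339), 13 had an unadjusted p under 0.05 (14.4%, against 8.78% of all genes), 10 higher and 3 lower, and the lineages did not overlap in 22 (24.4%, against 22.9%), 11 higher and 11 lower.

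The genes whose profiles over the 6 ovaries were most like those of the members had Pearson correlations of at least 0.989. For Pgr they were Snrpb (0.999), Slc9a9 (0.997) and Jag2 (0.996), and for Nr3c2 they were Zg16 (0.997), Frs3 (0.992) and Fam173b (0.989). For Esr1 the nearest was Tcte2, for Esr2 Adamts6, for Gper1 Tmem131, for Nr3c1 Epdr1, for Pgrmc1 Ei24 and for Pgrmc2 Zbtb43. With 6 ovaries and 16454 genes such values are common: 131 genes had a correlation above 0.95 with Pgr and 54 with Nr3c2.

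Among 14 other processing choices, only quantile normalization and median centring could have reversed the signs of Pgr and Nr3c2, whose lineages do not overlap. With them Pgr was at -0.84 and -0.78, and Nr3c2 at 0.61 and 0.65. Over all 14, the log2 fold change ran from -1.07 to -0.49 for Pgr and from 0.36 to 0.91 for Nr3c2. Their adjusted p values ranged from 0.268 to 1.00 and from 0.313 to 1.00 by limma, so neither passed under any of them.

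**Figure D5:**
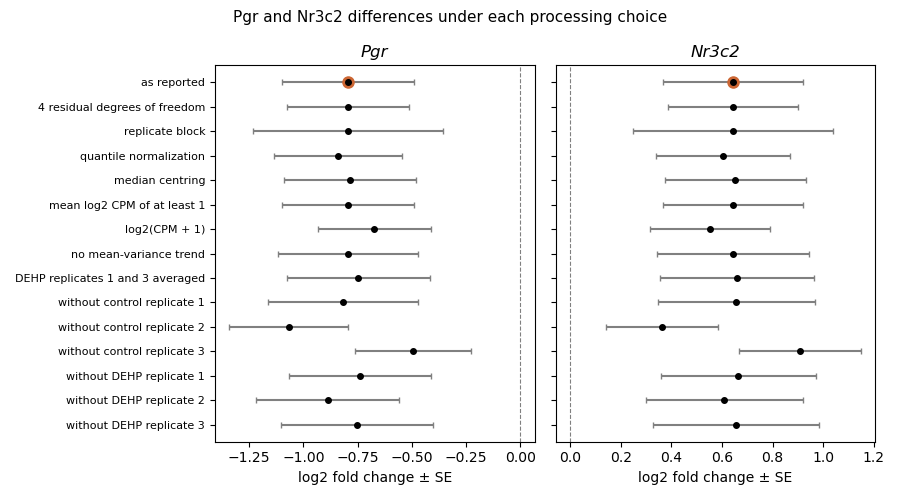
Log2 fold change (DEHP lineage minus control lineage) of Pgr and Nr3c2 with its SE under each processing choice, the reported value as a larger orange point. All values of Pgr lie below 0 and all values of Nr3c2 above 0. Only quantile normalization and median centring could have changed those signs, since the lineages do not overlap. Leaving out control replicate 2 or 3 moves both genes.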

How the data were processed

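The submitters' processing notes name STAR 2.5.3a, featureCounts, Trimmomatic 0.36 and edgeR 3.20.5 among the tools and GRCm38.p6 as the build, without settings. The authors deposited a table of log2 CPM per ovary from which, per its name, a surrogate variable had been removed. It also holds the p-values and the log2 fold changes of the authors' comparison. A signed fold score deposited by the authors was not used. Depth is unknown, so no counting error can be given.

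The lineages were compared with limma 3.58.1 (R 4.3.3) over all 16454 genes, with a mean-variance trend and two-sided Benjamini-Hochberg adjusted p-values (threshold 0.05). Residual degrees of freedom were 3, to count the removed direction. The script was tested on simulated data. Means ± SD are over 3 ovaries, and exact permutation tests were run on single genes. The permutation tests made no allowance for the removed direction. CPM was computed as 2 to the power of the deposited log2 value. Exon lengths came from GENCODE's annotation of GRCm38 and positions and promoter windows from RefSeq (GRCm38.p6). Of the members' 31-base words, at most 1.92% occurred on the same strand in another annotated gene and at most 2.9% on the opposite strand.

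Genes named were the 8 members and up to 4 genes with the smallest p of each of 9 pathway lists. The most abundant marker of each of 12 cell type lists was also named. So were some of the 3 genes nearest in profile to each member. Sgk1, Tsc22d3, Per1, Serbp1, Insl3, Slc4a1 and Wfdc2 were added after their values were seen. A gene that this rule names among the coregulators is not reported here. Members and lists were chosen with earlier results of these data known. Alternatives were 4 degrees of freedom, median centring, quantile normalization, a replicate block, a low-value filter, log2(CPM + 1), no trend, averaging DEHP replicates 1 and 3, and leaving out each ovary.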

Additional observations from a re-analysis of the deposited data

How the results depend on the processing

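None of the 8 members passed an adjusted p of 0.05 by limma under any of the 14 alternatives (0 of 112 values). The smallest was 0.268, for Pgr with 4 degrees of freedom. Pgr, Nr3c2, Pgrmc1, Pgrmc2, Esr1 and Nr3c1 kept their signs in all alternatives. With 4 degrees of freedom, the replicate block, the low-value filter or no trend, each estimate stayed as reported. For Pgr, Nr3c2 and Pgrmc2, whose lineages do not overlap, only quantile normalization and median centring could have reversed the sign. Differences near 0 changed sign: Esr2 was at 0.027 with quantile normalization and 0.0496 with DEHP replicates 1 and 3 averaged, and ran from -0.132 to 0.081 when single ovaries were left out, and Gper1 was at -0.0472 with quantile normalization and ran from -0.0805 to 0.171. Over the whole table, 7 genes were called, against 20 with 4 degrees of freedom, 3 with quantile normalization and 1 without the mean-variance trend. Between 3 and 270 were called with 1 ovary left out. The fits without DEHP replicate 1 (270 genes) or 3 (183 genes) had infinite prior degrees of freedom, against 4.324 in the reported fit. The cause of these differences in count was not tested. With 1 ovary left out, the log2 fold change ran from -1.07 to -0.49 for Pgr and from 0.36 to 0.91 for Nr3c2, the values nearest 0 being those without control replicate 3 and without control replicate 2.

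In the deposited values, the deviations of same-numbered ovaries had correlations of -0.33, -0.003 and -0.20, and no such pair was the best match. These deviations are taken from the lineage means and lack the removed direction. They therefore cannot settle whether the replicate numbers paired the ovaries as sequenced. With the replicate number as a block 83 genes were called, with 1 residual degree of freedom and an infinite prior, and no member was among them. Since depth is unknown, no counting error enters the precision of the low genes Gper1, Pgr and Nr3c2. That precision rests on the spread between ovaries, which limma moderated with the spread of other genes. The moderation carried 4.324 prior degrees of freedom, beside 3 residual degrees of freedom.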
